A study of Homo sapiens with 8 samples.

Results

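The genes described here are MYC, its dimerization partner and antagonists, factors of nucleolar ribosome assembly, and other genes that MYC activates. The list held 38 genes and, like the other gene lists used below, was chosen with earlier results of these data known. Every probe set whose single gene symbol in the array annotation was on this list was taken, with no further selection on measured values. A probe set is a group of short oligonucleotides that together report 1 transcript or several transcripts of a gene. The rule found 69 probe sets for 32 genes, out of 54675 on the array, of which 54613 were tested after 62 control probe sets were set aside. MXD4, NOP56, DKC1, GNL3, BOP1 and PPAN had no probe set of their own, and 13 probe sets that name a member together with another gene were left out. RNA came from 2 established human multiple myeloma lines, RPMI-8226 and JJN3, and each line gave 4 arrays. The treatments were uninfected cells, a lentivirus carrying a non-targeting (NT) shRNA, a lentivirus carrying an shRNA against XBP1, and a lentivirus carrying an shRNA against IRE1, the protein product of ERN1. Viral supernatant at 30 to 50% was applied for 16 h with 8 µg/mL polybrene, and harvest was at 96 h. Each treatment therefore had 1 array per line (n = 2), the lines stood as the replicates, and a p-value measures only the spread between these arrays, since nothing in the labels says that separate cultures were used. In bulk RNA, fewer cells of a kind and less RNA per cell cannot be told apart.

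MYC is a transcription factor that binds DNA as a dimer with MAX, preferably at the E-box CACGTG, and raises the transcription of genes for cell growth. MXD proteins and MNT compete for MAX at the same sites and repress. Ribosome assembly is a main output of MYC: RNA polymerase I makes the ribosomal RNA precursor in the nucleolus, small nucleolar ribonucleoproteins (snoRNPs) modify and help cut it, and separate sets of factors build the small and large subunits. MYC is commonly deregulated in myeloma, a cancer of plasma cells, which secrete antibody in bulk and depend on the IRE1-XBP1 branch of the unfolded protein response.

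The deposited values were centred, each probe set having a median of 0 over the 8 arrays, so they give differences between arrays and no expression level. They were read as log2 units because the processing named for them, RMA, returns that scale. Among markers of other cell types none passed the test with XBP1 shRNA against NT shRNA, while of the 20 plasma cell probe sets 1 was lower, of PRDM1, and their median difference was -0.47. Whether plasma cell markers were present at all cannot be read from centred values. The targeted genes did not all follow the labels. XBP1 mRNA (200670_at) was 65.9% (RPMI-8226) and 45.6% (JJN3) of its NT shRNA level under XBP1 shRNA, and 64.7% and 16.8% under IRE1 shRNA. ERN1 mRNA (235745_at) was 36.7% and 42.9% of its NT shRNA level under XBP1 shRNA. None of these falls was called (adjusted p = 0.358 and 0.212 for XBP1, and 0.0926 for ERN1 under XBP1 shRNA). Under IRE1 shRNA, ERN1 was 53.9% of NT shRNA in JJN3, whereas in RPMI-8226 it was 129.8%, which goes against the label of that array. Probe sets of a gene differed: the XBP1 probe set 242021_at stood at 87.1% and 102.3% of NT shRNA under XBP1 shRNA and at 99.6% and 107.3% under IRE1 shRNA. For ERN1, 227755_at gave 39.1% and 38.3% under XBP1 shRNA and 117.1% and 44.7% under IRE1 shRNA, while 207061_at gave 91.0% and 99.1%, and 88.6% and 114.3%. Arrays are therefore called by their labels throughout, and any direction drawn from the RPMI-8226 array labelled IRE1 shRNA carries this limit. Spiked poly-A controls were highest, by their median, under XBP1 shRNA in each line (0.41 for RPMI-8226, 0.12 for JJN3, beside 0.24 and -0.065 under NT shRNA).

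The promoters of many members hold the E-box itself. In the RefSeq promoter table (GRCh38.p14; 300 bases a window, from 250 bases before the first transcribed base), 31 of the 38 members had an entry and 14 of these, 45.2%, held CACGTG, against 8.77% of all 27305 genes in the table and 7.26% of its 35116 windows. CACGTG reads the same on both strands, so 1 search covers both. MYC had no entry. For 5 members to which the results below return, the 30 bases around the match are shown from 5′ to 3′ on the strand of the gene, with CACGTG in capitals. They are NOP14 (chr4:2963374-2963403, minus strand), PES1 (chr22:30591880-30591909, minus), SRM (chr1:11060200-11060229, minus), FBL (chr19:39846356-39846385, minus) and UTP20 (chr12:101280083-101280112, plus).
NOP14: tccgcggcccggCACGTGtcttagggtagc
PES1: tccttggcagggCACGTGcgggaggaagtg
SRM: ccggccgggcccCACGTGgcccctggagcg
FBL: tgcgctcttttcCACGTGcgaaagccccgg
UTP20: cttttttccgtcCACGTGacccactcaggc
The 5 matches lie in promoters of genes with unlike patterns on the arrays, as the values show. Neither window of HMGA1 held the hexamer. A match describes the letters of the window and is not evidence of a bound site.

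The comparison of XBP1 shRNA with NT shRNA sets the members on arrays with these labels beside each other. XBP1 itself was not called lower in it. By 235745_at and 227755_at, though not by 207061_at, ERN1 stood lower relative to NT shRNA than XBP1 (200670_at) did in each line. Whether the shifts below follow from loss of XBP1 was not tested. HMGA1, a chromatin architectural protein that MYC activates, fell about 4-fold in both lines by 1 of its probe sets. MYC, the spermidine synthase SRM, the small subunit factor NOP14 and the large subunit factor PES1 were also lowest on the XBP1 shRNA array of each line, but none of these 4 passed the test. In the sentences that follow, values of an array are centred log2 values in the order uninfected, NT shRNA, XBP1 shRNA and IRE1 shRNA. HMGA1 (206074_s_at) stood at 0.78, 0.99, -1.33 and 0.91 in RPMI-8226 and -0.028, -0.13, -2.07 and 0.028 in JJN3. The XBP1 shRNA arrays lay far below the other 3 arrays of their line, and these 2 arrays did not overlap with the other 6. Against NT shRNA the difference was -2.13 ± 0.15 (SE; adjusted p = 0.00574), which left HMGA1 at 20.0% (RPMI-8226) and 26.0% (JJN3) of its NT shRNA level. Leaving out NT shRNA of RPMI-8226 ended the call (-1.98, adjusted p = 0.110). HMGA1 was the only member called, 1 of 69 probe sets, and 1.21% of all probe sets were called in this comparison (0.681% lower), so the share called is close to the background. The other probe set of HMGA1, 210457_x_at, stood at 0.10, 0.35, 0.043 and 0.097 in RPMI-8226 and -0.073, -0.043, -0.51 and -0.14 in JJN3. It was lowest on the XBP1 shRNA array of each line but its difference was only -0.38 ± 0.15 (adjusted p = 0.296). The suffix x marks probes that can match other transcripts, and the probe sets of HMGA1 disagree in size. What the probes of either one match was not examined, so neither is taken as the better measure of HMGA1.

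MYC (202431_s_at) stood at 0.78, 0.42, -0.033 and 0.74 in RPMI-8226 and -0.12, 0.033, -1.01 and -0.14 in JJN3. Its lowest value in each line was that of the XBP1 shRNA array, at 72.8% of NT shRNA in RPMI-8226 and 48.5% in JJN3. The treatments overlapped across the lines, since the RPMI-8226 XBP1 shRNA value lay above 3 of the 4 JJN3 values. The difference from NT shRNA was -0.75 ± 0.17 (adjusted p = 0.0798). With uninfected cells as the control in place of NT shRNA it was -0.85 (adjusted p = 0.0451), and there HMGA1, MYC and the MYC antagonist MXD1 were called, the last higher. SRM (201516_at) stood at 0.46, 1.12, 0.40 and 0.43 in RPMI-8226 and -0.82, -0.40, -1.61 and -1.58 in JJN3. Here the NT shRNA array was the highest of each line, and the arrays labelled XBP1 shRNA and IRE1 shRNA lay close together, below uninfected cells in JJN3 and beside them in RPMI-8226. The SRM difference was -0.97 ± 0.20 with XBP1 shRNA (adjusted p = 0.0579) and -0.94 ± 0.20 with IRE1 shRNA (adjusted p = 0.189), and both share the NT shRNA arrays. NOP14 (214661_s_at) stood at 1.03, 0.96, -0.014 and 1.08 in RPMI-8226 and -0.18, 0.014, -0.62 and -0.15 in JJN3. It was lowest on the XBP1 shRNA array of each line, with a difference from NT shRNA of -0.80 ± 0.18 (adjusted p = 0.0737).

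**Figure D1:**
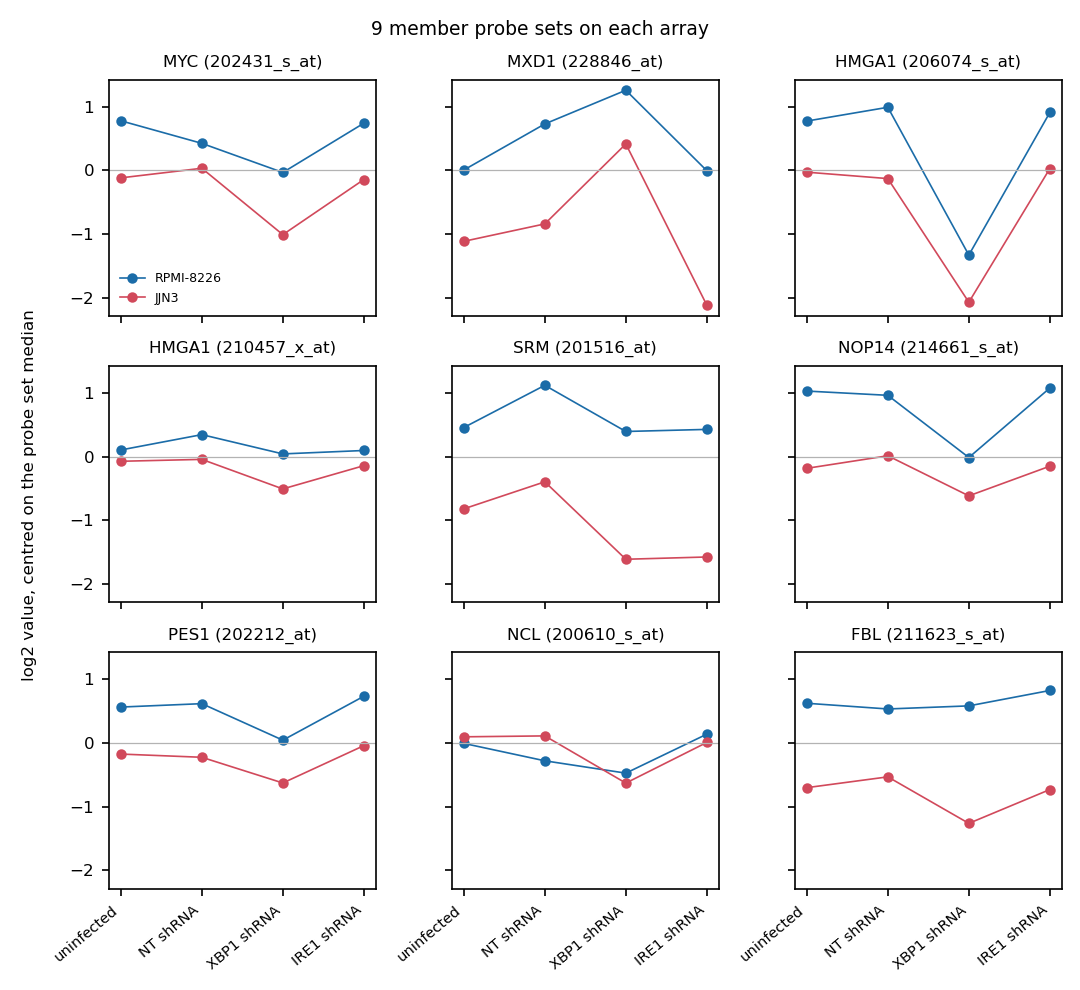
Centred log2 value (vertical axis) of 9 member probe sets on each array, by treatment label (horizontal axis), with 1 line of points for RPMI-8226 and 1 for JJN3; each point is 1 array. The HMGA1 probe set 206074_s_at drops to -1.33 and -2.07 on the XBP1 shRNA arrays, while MXD1 (228846_at) is highest there, at 1.26 and 0.42.

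Small shifts in 1 direction ran through much of the list on the XBP1 shRNA arrays. The member median was -0.14 against NT shRNA, with 50 of 69 probe sets below 0, beside a median of 0.00059 over all probe sets tested. Within the lines it was -0.095 in RPMI-8226 and -0.19 in JJN3, and with NT shRNA of JJN3 left out it was -0.086. By direction alone, 38 of 69 member probe sets (55.1%, 25 genes) were lower than NT shRNA in both lines, and 27.8% of all probe sets were. The XBP1 shRNA array was the lowest of its line in both lines for 24 of 69 (34.8%, 18 genes), and for 10.6% of all probe sets. These counts of direction were added after the data were seen, and probe sets of 1 gene share its RNA. At an unadjusted p under 0.05, 16 of 69 (23.2%) passed, beside 13.7% of all. By role, the median was lowest, at -0.68, over the 4 probe sets of SRM, ODC1 and HMGA1. It was -0.26 over the 15 large subunit probe sets, of which 13 were negative, and -0.29 over the 10 of nucleolar scaffold and snoRNP proteins. For small subunit factors it was -0.079 over 10, for RNA polymerase I transcription -0.072 over 18, and for MYC and its partners -0.021 over 12. The poly-A controls were also higher on the XBP1 shRNA arrays. In RPMI-8226 their median rose as well from -0.017 in uninfected cells to 0.24 under NT shRNA, where the member median difference was 0.020. The part of these controls in the shifts was not tested. Of the 18 genes with several probe sets, all probe sets were lower in 8, all were higher in 1 and the signs were mixed in 9.

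**Figure D2:**
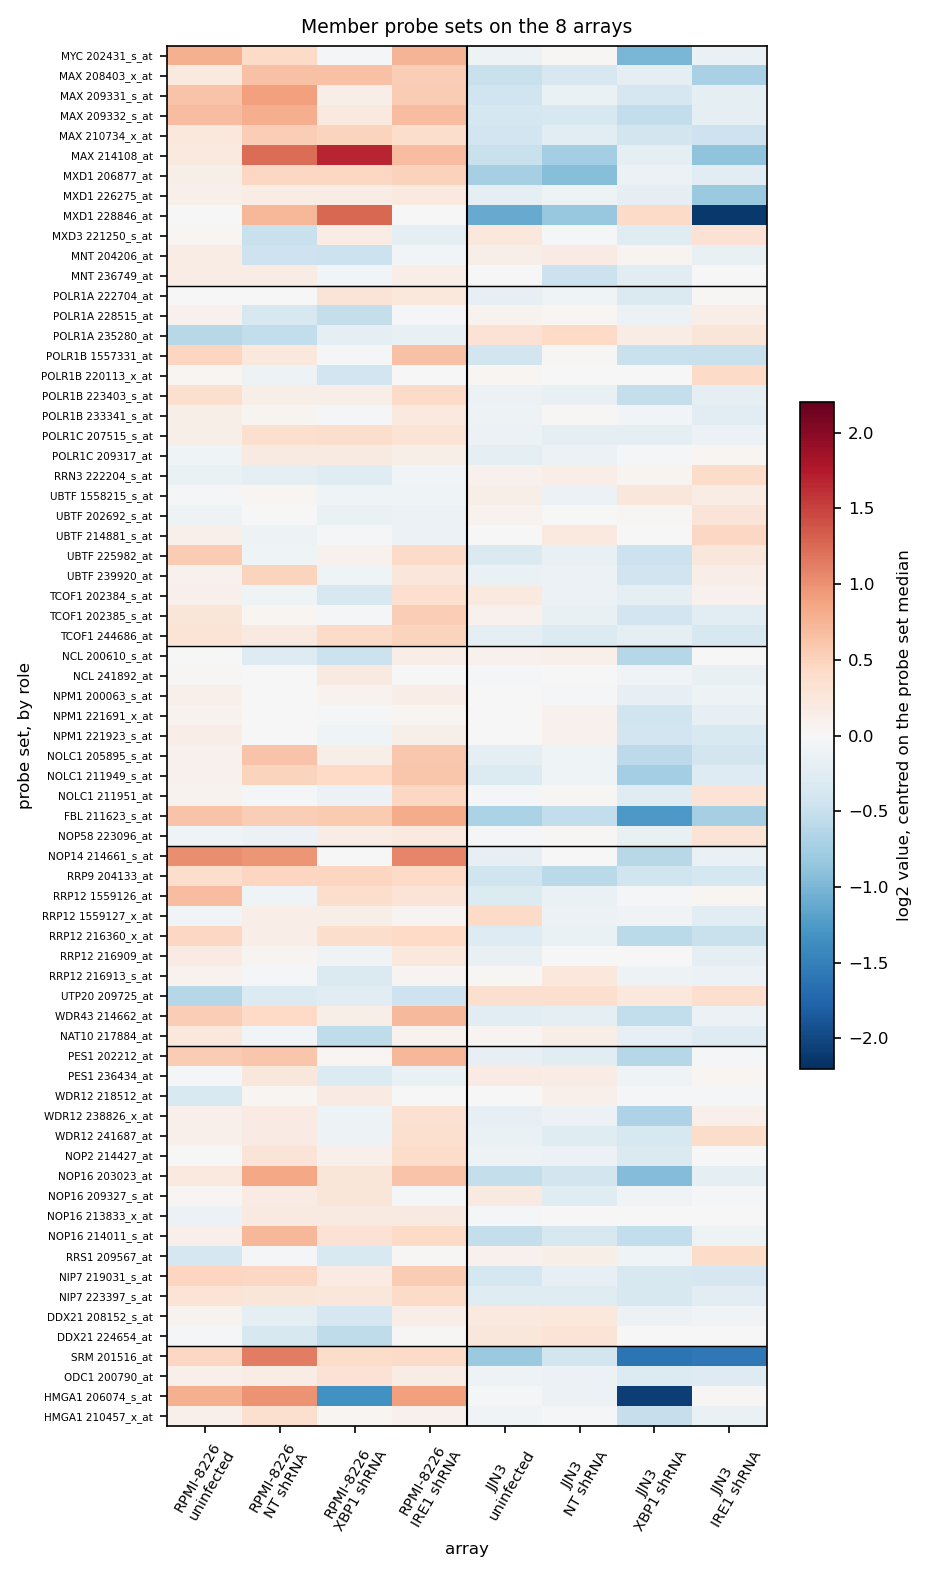
Centred log2 value (colour scale) of the 69 member probe sets (rows, grouped by role) on the 8 arrays (columns, RPMI-8226 left of the line and JJN3 right of it). The JJN3 XBP1 shRNA array was the lowest of its line for 41 of 69 probe sets (59.4%, beside 29.6% of all probe sets tested). The RPMI-8226 array labelled IRE1 shRNA was the lowest of its line for 3 of 69 (4.35%, beside 20.3% of all). Over all probe sets these were also the arrays most and least often lowest in their line.

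The arrays labelled IRE1 shRNA did not repeat this picture. None of the 69 member probe sets was called against NT shRNA by limma, where 0.0183% of all probe sets were called, and 5 of 69 passed an unadjusted p under 0.05, beside 9.47% of all. The member median was 0.024, at 0.10 in RPMI-8226 and -0.066 in JJN3. MYC differed from NT shRNA by 0.070 ± 0.17 and HMGA1 (206074_s_at) by 0.038 ± 0.15. For MYC the sign turned with NT shRNA of RPMI-8226 left out (-0.19) and against uninfected cells (-0.032).

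Set directly against each other, the arrays labelled IRE1 shRNA had higher HMGA1 and lower MXD1 than those labelled XBP1 shRNA, by 1 probe set of each. The other HMGA1 probe set, 210457_x_at, differed by only 0.054 in RPMI-8226 and 0.37 in JJN3. For MXD1, 206877_at gave 0.061 and -0.12 in these lines and 226275_at gave 0.055 and -0.61. This comparison shares the XBP1 shRNA arrays with the comparison against NT shRNA and is no independent support for it. MXD1 (228846_at), which competes with MYC for MAX, stood at 0.0057, 0.73, 1.26 and -0.0057 in RPMI-8226 and -1.12, -0.84, 0.42 and -2.12 in JJN3. The XBP1 shRNA array was the highest of each line and the IRE1 shRNA array the lowest, and the ranges of the lines overlapped. IRE1 minus XBP1 shRNA was -1.90 ± 0.26 for MXD1 (adjusted p = 0.0153) and 2.17 ± 0.15 for HMGA1 (adjusted p = 0.00271). These were 2 of 69 member probe sets called, beside 1.9% of all probe sets (0.908% higher and 0.987% lower). Without the JJN3 array labelled IRE1 shRNA both calls ended (adjusted p = 0.0740 for HMGA1 and 0.156 for MXD1), and that of MXD1 also ended without the JJN3 XBP1 shRNA array (-1.52, adjusted p = 0.0602). Just past the threshold lay MYC at 0.82 ± 0.17 (adjusted p = 0.0524), PES1 (202212_at) at 0.64 ± 0.14 (0.0551) and NOP14 at 0.78 ± 0.18 (0.0695). The member median was 0.18, with 51 of 69 probe sets positive, beside 0.0053 over all, and 41 of 69 (59.4%) were higher in both lines, beside 29.3% of all. An unadjusted p under 0.05 was reached by 19 of 69 (27.5%), beside 13.7% of all. Without the RPMI-8226 array labelled IRE1 shRNA the median was 0.11. Of the plasma cell marker probe sets 3, of IRF4, POU2AF1 and PRDM1, were higher here and 0 lower, with a median of 0.21 over the 20. The JJN3 array labelled IRE1 shRNA also had the highest hybridisation controls, with a median of 0.42 beside -0.15 to 0.088 on the others. The part of either in the member shifts was not tested.

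**Figure D3:**
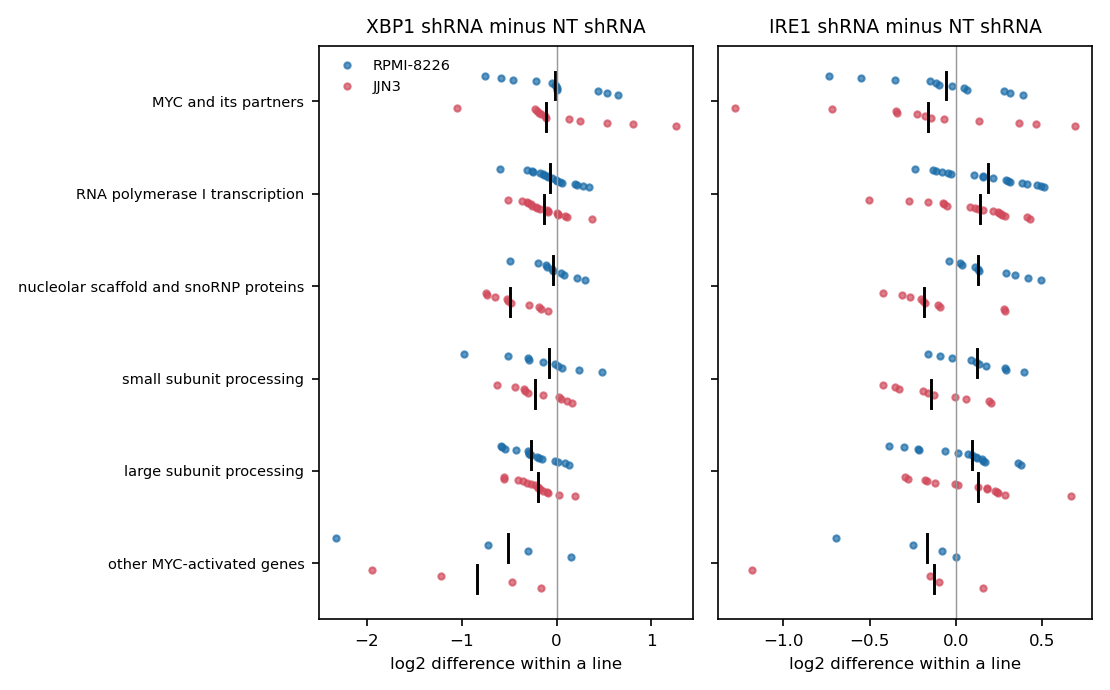
Log2 difference from the NT shRNA array of the same line (horizontal axes) for the 69 member probe sets, by role (vertical axis), with XBP1 shRNA on the left and IRE1 shRNA on the right; each point is 1 probe set and each vertical bar the median of a role in a line. With XBP1 shRNA the medians lie below 0 in every role of both lines and the lowest points are HMGA1 (206074_s_at), at -2.32 in RPMI-8226 and -1.94 in JJN3, while with IRE1 shRNA they lie on both sides of 0.

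The virus itself and the silenced cells taken as one group gave no member called. Between NT shRNA and uninfected cells, limma called 0 of 69 members and 0% of all probe sets, and 2 of 69 (5.57% of all) reached an unadjusted p under 0.05, SRM at 0.54 ± 0.20 and the large subunit factor NOP16 (214011_s_at) at 0.40 ± 0.17. MYC differed by -0.10 ± 0.17, with the sign turned to 0.16 without the RPMI-8226 NT shRNA array. With both shRNAs against both controls, 4 arrays a side, limma called 0 of 69 members and 0% of all, with 4 of 69 (9.3% of all) at an unadjusted p under 0.05. Those 4 were SRM at -0.68 ± 0.18, NAT10 at -0.33 ± 0.14, PES1 (236434_at) at -0.26 ± 0.10 and MXD1 (206877_at) at 0.43 ± 0.13. MYC stood at -0.39 ± 0.22 and HMGA1 (206074_s_at) at -1.02 ± 0.51. The test of whether the silencing effect differed between the lines also called 0 of 69 members and 0% of all by limma, with 1 of 69 (5.23% of all) at an unadjusted p under 0.05, POLR1A (235280_at) at -0.55 ± 0.18 in JJN3 minus RPMI-8226. All 10 probe sets of nucleolar scaffold and snoRNP proteins were negative in it, with a median of -0.33, and none passed.

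More member probe sets were called between the lines than between treatments. The line comparison had 4 arrays a side, whereas comparisons of single treatments had 2. The largest single difference of a member was between treatments. By 1 probe set, HMGA1 differed by 2.17 for IRE1 minus XBP1 shRNA, more than any member did between the lines. In JJN3 against RPMI-8226, paired by treatment, 35 member probe sets (21 genes) were lower and 5 (5 genes) higher, beside 33.3% lower and 22.8% higher of all probe sets tested. Together these were 58.0% of the members, beside 56.0% of all, so the share called is near the background. The difference between 3′ and 5′ actin control probe sets, a sign of RNA quality, also separated the lines without overlap (RPMI-8226 from -0.61 to -0.43, JJN3 from 0.13 to 0.42). The same difference for GAPDH overlapped between the lines (RPMI-8226 from -0.083 to 0.062, JJN3 from 0.0037 to 0.046). The part of RNA quality in the line differences was not tested. The member median was -0.33, beside -0.14 over all probe sets. The lines did not overlap for 25 member probe sets with JJN3 below (36.2%, beside 29.8% of all) and 4 with JJN3 above (5.80%, beside 18.9% of all). MYC and its partners had 9 of 12 probe sets lower, and all 4 probe sets of SRM, ODC1 and HMGA1 were lower. The large subunit factors had 7 of 15 lower and 2 higher, the small subunit factors 5 of 10 and 1, RNA polymerase I transcription 7 of 18 and 2, and the nucleolar scaffold and snoRNP proteins 3 of 10 and 0. FBL, the methyltransferase of box C/D snoRNPs, stood at 0.62, 0.53, 0.58 and 0.82 in RPMI-8226 and -0.70, -0.53, -1.26 and -0.73 in JJN3. Every JJN3 value lay below every RPMI-8226 value, and the difference was -1.45 ± 0.13 (adjusted p = 2.19e-05). UTP20, a scaffold of the small subunit processome, stood at -0.63, -0.29, -0.23 and -0.46 in RPMI-8226 and 0.36, 0.38, 0.23 and 0.37 in JJN3. It ran the other way without overlap, at 0.74 ± 0.11 (adjusted p = 5.78e-04). SRM lay furthest below, at -1.70 ± 0.14 (adjusted p = 1.07e-05), and MYC was lower by less, at -0.79 ± 0.12 (adjusted p = 5.85e-04). With each array set to its own median, the median of all probe sets moved from -0.14 to -0.052, that of the members to -0.24, and 24 member genes were called, 18 with a lower and 7 with a higher probe set.

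**Figure D4:**
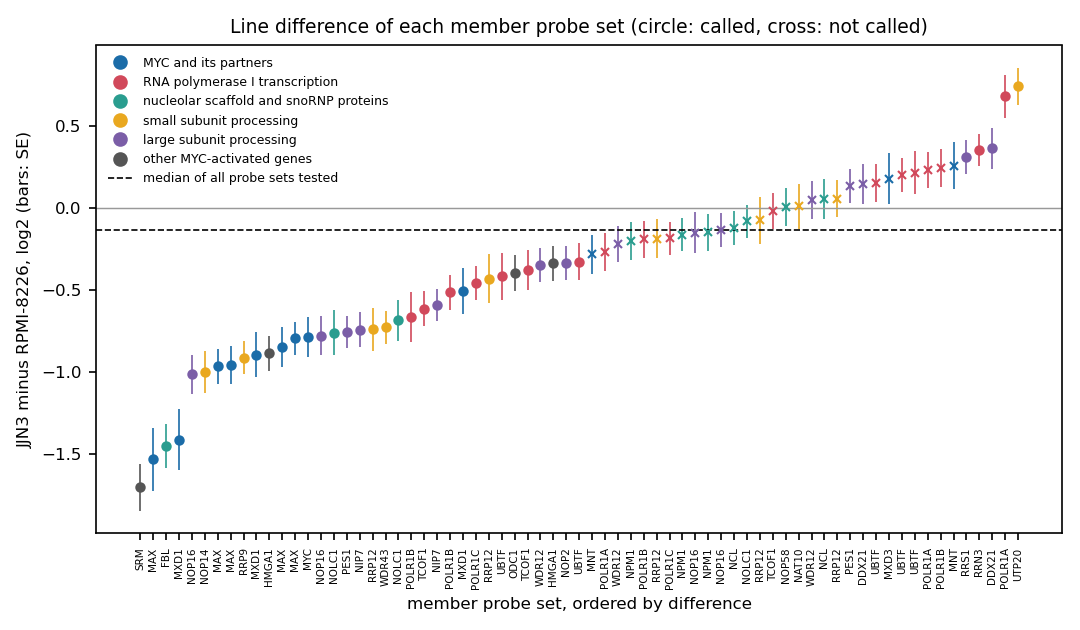
Log2 difference JJN3 minus RPMI-8226 (vertical axis, bars ± 1 SE from limma) of the 69 member probe sets, ordered by size (horizontal axis) and coloured by role; circles are called and crosses are not. The dashed line is the median of all probe sets tested, -0.14; SRM is at the low end at -1.70 and UTP20 at the high end at 0.74.

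Among MAX and the antagonists of MYC, the probe sets of 1 gene often moved apart. MAX, the obligate partner of MYC, had 5 probe sets. Its probe set 214108_at stood at 0.21, 1.24, 1.67 and 0.68 in RPMI-8226 and -0.49, -0.74, -0.21 and -0.89 in JJN3, with every JJN3 value below every RPMI-8226 value (-1.53 ± 0.19). The MAX probe sets disagreed on XBP1 shRNA. Probe set 209331_s_at stood at 0.63, 0.90, 0.15 and 0.55 in RPMI-8226 and -0.43, -0.15, -0.36 and -0.22 in JJN3, lower than NT shRNA in both lines (-0.48 ± 0.17, adjusted p = 0.247), and 209332_s_at at 0.68, 0.80, 0.21 and 0.68 in RPMI-8226 and -0.39, -0.35, -0.54 and -0.21 in JJN3 gave -0.39 ± 0.15, whereas 214108_at gave 0.48 ± 0.27. All 5 MAX probe sets were lower in JJN3. MXD1 also had the probe sets 206877_at, at 0.12, 0.45, 0.45 and 0.52 in RPMI-8226 and -0.74, -0.93, -0.12 and -0.24 in JJN3, and 226275_at, at 0.11, 0.17, 0.17 and 0.22 in RPMI-8226 and -0.22, -0.11, -0.21 and -0.82 in JJN3. Neither showed the peak of 228846_at on the XBP1 shRNA arrays of both lines, and IRE1 minus XBP1 shRNA was -0.030 and -0.28 by them. With the mean of its probe sets MXD1 was at -0.74 (adjusted p = 0.0871). All 3 MXD1 probe sets were lower in JJN3. MXD3, another MAX-binding repressor, stood at 0.049, -0.49, 0.16 and -0.21 in RPMI-8226 and 0.22, -0.049, -0.27 and 0.32 in JJN3, in opposite order between the lines for XBP1 shRNA against NT shRNA. MNT, a repressor found in most cells, stood at 0.17, -0.45, -0.47 and -0.061 in RPMI-8226 and 0.13, 0.18, 0.061 and -0.16 in JJN3 by 204206_at and at 0.16, 0.16, -0.052 and 0.14 in RPMI-8226 and 0.016, -0.48, -0.24 and -0.016 in JJN3 by 236749_at, and neither was called in any comparison.

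For RNA polymerase I transcription, changes between treatments were small and those between lines mixed. POLR1A, the largest subunit of the polymerase, stood at -0.61, -0.54, -0.20 and -0.16 in RPMI-8226 and 0.32, 0.44, 0.16 and 0.27 in JJN3 by 235280_at. JJN3 lay above RPMI-8226 on every array (0.68 ± 0.13, adjusted p = 0.00226), and the other POLR1A probe sets, 222704_at and 228515_at, were not called, at -0.27 and 0.23. By the mean of its probe sets POLR1A was not called (0.21, adjusted p = 0.0639). POLR1B, the other large catalytic subunit, stood at 0.47, 0.23, -0.019 and 0.64 in RPMI-8226 and -0.40, 0.019, -0.49 and -0.48 in JJN3 by 1557331_at and at 0.35, 0.13, 0.13 and 0.42 in RPMI-8226 and -0.13, -0.16, -0.52 and -0.22 in JJN3 by 223403_s_at. Both were lower in JJN3 (-0.67 and -0.51), while 220113_x_at and 233341_s_at were not called. POLR1C, which RNA polymerases I and III share, stood at 0.13, 0.35, 0.39 and 0.31 in RPMI-8226 and -0.13, -0.21, -0.21 and -0.13 in JJN3 by 207515_s_at. This probe set was lower in JJN3 (-0.46), with XBP1 shRNA differing from NT shRNA by 0.017. The other POLR1C probe set, 209317_at, was not called, with JJN3 minus RPMI-8226 at -0.10, -0.33, -0.23 and -0.086 in the order of treatments. RRN3, the factor that makes the polymerase ready to initiate, stood at -0.15, -0.22, -0.26 and -0.057 in RPMI-8226 and 0.097, 0.15, 0.057 and 0.41 in JJN3. It was higher in JJN3 (0.35 ± 0.098; adjusted p = 0.0617 without the IRE1 shRNA array of either line) and lowest on the XBP1 shRNA array of each line by a small margin. UBTF, which opens ribosomal DNA for transcription, had 5 probe sets, and 225982_at stood at 0.56, -0.098, 0.098 and 0.41 in RPMI-8226 and -0.31, -0.16, -0.47 and 0.25 in JJN3 and 239920_at at 0.10, 0.49, -0.10 and 0.26 in RPMI-8226 and -0.15, -0.12, -0.44 and 0.14 in JJN3. Both were lower in JJN3, at -0.42 and -0.33, whereas the remaining UBTF probe sets were not called and leaned the other way. By treatment, in the same order, JJN3 minus RPMI-8226 was 0.18, 0.030, 0.17 and 0.41 for 202692_s_at. It was 0.17, -0.17, 0.35 and 0.25 for 1558215_s_at and -0.13, 0.33, 0.061 and 0.60 for 214881_s_at. Probe set 239920_at was lowest on the XBP1 shRNA arrays, at -0.45 ± 0.16 from NT shRNA (adjusted p = 0.239). TCOF1 (treacle), a nucleolar cofactor of ribosomal RNA transcription, stood at 0.27, 0.044, -0.044 and 0.54 in RPMI-8226 and 0.090, -0.16, -0.42 and -0.23 in JJN3 by 202385_s_at, at 0.30, 0.19, 0.41 and 0.50 in RPMI-8226 and -0.20, -0.31, -0.19 and -0.36 in JJN3 by 244686_at and at 0.11, -0.093, -0.35 and 0.38 in RPMI-8226 and 0.21, -0.12, -0.21 and 0.093 in JJN3 by 202384_s_at. The first and the second were lower in JJN3 (-0.38 and -0.61), and 202384_s_at was among the member probe sets furthest above XBP1 shRNA on the arrays labelled IRE1 shRNA, at 0.52, without a call.

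Nucleolar scaffold and snoRNP proteins had their lowest median, -0.42, on the JJN3 XBP1 shRNA array, where uninfected and NT shRNA cells of that line stood at -0.031 and 0.019. NCL (nucleolin), an abundant RNA-binding protein of the nucleolus, stood at -0.0077, -0.28, -0.48 and 0.14 in RPMI-8226 and 0.096, 0.11, -0.63 and 0.0077 in JJN3 by 200610_s_at. The XBP1 shRNA array was the lowest of each line, at -0.47 ± 0.17 from NT shRNA (adjusted p = 0.253), while 241892_at gave 0.066. NPM1 (nucleophosmin), a histone and ribosome chaperone, had 3 probe sets with differences from NT shRNA of -0.043, -0.28 and -0.30. In JJN3 the XBP1 shRNA array held the lowest NPM1 value by all 3, from -0.43 to -0.18, and no NPM1 probe set was called in any comparison. NOLC1, a snoRNP chaperone, stood at 0.10, 0.63, 0.14 and 0.59 in RPMI-8226 and -0.20, -0.10, -0.58 and -0.41 in JJN3 by 205895_s_at and at 0.095, 0.49, 0.44 and 0.60 in RPMI-8226 and -0.30, -0.095, -0.74 and -0.28 in JJN3 by 211949_s_at. Both were lower in JJN3 (-0.69 and -0.76), with differences of -0.48 ± 0.18 and -0.35 from NT shRNA with XBP1 shRNA. The third NOLC1 probe set, 211951_at, stood at 0.079, -0.031, -0.14 and 0.46 in RPMI-8226 and -0.039, 0.031, -0.26 and 0.31 in JJN3. It was highest on the array labelled IRE1 shRNA in both lines, at 0.58 ± 0.14 against XBP1 shRNA (adjusted p = 0.0771). FBL on the XBP1 shRNA arrays was at 103.4% of NT shRNA in RPMI-8226 and 60.2% in JJN3, so the lines went opposite ways. NOP58, a core protein of box C/D snoRNPs, stood at -0.10, -0.14, 0.16 and 0.21 in RPMI-8226 and -0.026, 0.026, -0.16 and 0.31 in JJN3 and also differed in sign between the lines.

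Among small subunit factors, NOP14, given above, had the lowest difference with XBP1 shRNA, and it was lower in JJN3 by the line comparison as well (-0.999 ± 0.13, adjusted p = 1.70e-04). RRP9, a protein of the U3 snoRNP, stood at 0.40, 0.47, 0.48 and 0.45 in RPMI-8226 and -0.44, -0.60, -0.44 and -0.40 in JJN3. Its 4 RPMI-8226 values lay within a narrow band above all JJN3 values (-0.91 ± 0.10), and XBP1 shRNA differed from NT shRNA by 0.087. RRP12, which helps both subunits leave the nucleus, had 5 probe sets, and 216360_x_at stood at 0.46, 0.15, 0.39 and 0.44 in RPMI-8226 and -0.29, -0.15, -0.59 and -0.49 in JJN3 and 1559126_at at 0.68, -0.094, 0.39 and 0.30 in RPMI-8226 and -0.30, -0.15, -0.041 and 0.041 in JJN3. Both were lower in JJN3 (-0.74 and -0.43), and the remaining 3 were not called. The 5 RRP12 probe sets ran from -0.31 to 0.30 with XBP1 shRNA. WDR43, a subunit that links the processome to transcription, stood at 0.53, 0.43, 0.13 and 0.72 in RPMI-8226 and -0.24, -0.19, -0.53 and -0.13 in JJN3. It was lowest on the XBP1 shRNA array of each line (-0.32 ± 0.14, adjusted p = 0.364) and lower in JJN3 without overlap (-0.73 ± 0.099). NAT10, the RNA acetyltransferase of small subunit ribosomal RNA, stood at 0.24, -0.057, -0.57 and 0.076 in RPMI-8226 and 0.057, 0.13, -0.17 and -0.29 in JJN3. In RPMI-8226 the XBP1 shRNA array was lowest and in JJN3 the array labelled IRE1 shRNA was, and XBP1 shRNA differed from NT shRNA by -0.41 ± 0.19 (adjusted p = 0.410).

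Of the large subunit factors, 13 of 15 probe sets stood below NT shRNA on the XBP1 shRNA arrays, all without a call. PES1, which forms a complex with BOP1 and WDR12 for large subunit processing, stood at 0.56, 0.62, 0.043 and 0.73 in RPMI-8226 and -0.18, -0.23, -0.63 and -0.043 in JJN3 by 202212_at and at -0.046, 0.25, -0.29 and -0.14 in RPMI-8226 and 0.18, 0.17, -0.10 and 0.046 in JJN3 by 236434_at. Both were lowest on the XBP1 shRNA array of each line, at -0.49 ± 0.14 (adjusted p = 0.139) and -0.41 ± 0.15 (0.248). The first was lower in JJN3 (-0.76) and the second was not called (0.13). WDR12, of the same complex, stood at 0.11, 0.19, -0.11 and 0.34 in RPMI-8226 and -0.19, -0.12, -0.68 and 0.11 in JJN3 by 238826_x_at and at 0.11, 0.18, -0.11 and 0.35 in RPMI-8226 and -0.14, -0.26, -0.35 and 0.41 in JJN3 by 241687_at. Again the XBP1 shRNA array was lowest and the array labelled IRE1 shRNA highest in each line, with 0.62 ± 0.15 and 0.61 ± 0.16 between them (adjusted p = 0.0752 and 0.0984), whereas 218512_at gave -0.11. Of the WDR12 probe sets 238826_x_at alone was called between the lines, lower in JJN3 (-0.35). NOP2, a ribosomal RNA methyltransferase, stood at -0.0034, 0.29, 0.11 and 0.41 in RPMI-8226 and -0.11, -0.12, -0.31 and 0.0034 in JJN3, with XBP1 shRNA lowest in JJN3 but not in RPMI-8226. It was lower in JJN3 (-0.33). NOP16 (203023_at) stood at 0.22, 0.85, 0.26 and 0.63 in RPMI-8226 and -0.52, -0.40, -0.96 and -0.22 in JJN3, and 214011_s_at at 0.11, 0.73, 0.31 and 0.43 in RPMI-8226 and -0.53, -0.35, -0.55 and -0.11 in JJN3. Both were lower in JJN3 (-1.02 ± 0.12 and -0.78 ± 0.12), and with XBP1 shRNA they differed from NT shRNA by -0.57 ± 0.17 (adjusted p = 0.163) and -0.31, while 209327_s_at gave 0.14 and 213833_x_at 0.019. RRS1, which brings the RNA and proteins of a small ribonucleoprotein into the large subunit, stood at -0.37, -0.034, -0.33 and 0.034 in RPMI-8226 and 0.10, 0.12, -0.098 and 0.41 in JJN3 and was higher in JJN3 (0.31), a call that ended with no treatment block and without the uninfected or IRE1 shRNA array of either line (adjusted p up to 0.120). NIP7, a late processing factor, stood at 0.47, 0.46, 0.19 and 0.56 in RPMI-8226 and -0.38, -0.19, -0.36 and -0.37 in JJN3 by 219031_s_at and at 0.31, 0.27, 0.25 and 0.42 in RPMI-8226 and -0.26, -0.26, -0.35 and -0.25 in JJN3 by 223397_s_at, and both were lower in JJN3 without overlap (-0.74 and -0.59). DDX21, an RNA helicase of the nucleolus, stood at -0.031, -0.35, -0.55 and 0.027 in RPMI-8226 and 0.24, 0.30, -0.016 and 0.016 in JJN3 by 224654_at. It was higher in JJN3 (0.36), a call that ended without the uninfected, NT shRNA or XBP1 shRNA array of either line (adjusted p up to 0.149), with the mean of its probe sets and with no treatment block. Both DDX21 probe sets were lowest on the XBP1 shRNA arrays, at -0.26 and -0.26, without a call. ODC1, the enzyme that supplies putrescine to SRM, stood at 0.11, 0.16, 0.32 and 0.17 in RPMI-8226 and -0.11, -0.14, -0.30 and -0.29 in JJN3. Unlike SRM it differed from NT shRNA by only -0.0048 with XBP1 shRNA and -0.074 with IRE1 shRNA, and it was lower in JJN3 (-0.40 ± 0.11).

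Genes of the same processes outside the member list held 9 genes called with XBP1 shRNA, 8 of them lower. The lists were the rest of the MYC network, RNA polymerase I transcription, the small subunit processome, large subunit assembly, other MYC-activated genes and cytosolic ribosomal proteins. Of their probe sets 1.69%, 5.56%, 2.02%, 1.15%, 4.49% and 0.893% were called, in that order, beside 1.21% of all probe sets tested, so several lists lay near the background. Against NT shRNA, 1 of 18 measured genes of the MYC network was lower and 0 higher, MLX, a MAX-like partner (-0.89 ± 0.15). Of 16 genes of RNA polymerase I transcription 1 was lower and 0 higher, POLR2E, a subunit shared by the nuclear polymerases, by both called probe sets (-1.01 each). Of 46 small subunit genes 2 were lower and 0 higher, the helicase DDX10 (-1.07) and NOP10 (-1.20), a protein of box H/ACA snoRNPs. Of 46 large subunit genes 1 was lower and 0 higher, MAK16 (-1.10). Of 36 other MYC-activated genes 2 were lower and 1 higher: the nuclear transport GTPase RAN (-1.03), the purine synthesis enzyme PAICS (-1.07), and the transferrin receptor TFRC, which rose by 1.06 and 0.999 by its called probe sets. Of 53 ribosomal protein genes 1 was lower and 0 higher, RPL31 (-1.23). These 9 genes have 11 called probe sets. By the mean of the probe sets of a gene 4 of the 11 (3 genes) stayed called, and after quantile normalization 6 (5 genes) did. The list medians ran from -0.16 for RNA polymerase I transcription to -0.015 for the MYC network. With NT shRNA of RPMI-8226 left out, or that of JJN3, 0 of the 11 stayed called (adjusted p from 0.132 to 0.277 and from 0.0653 to 0.270). Of the 11, 1 stayed called without the RPMI-8226 XBP1 shRNA array, 3 without that of JJN3, 4 without the one or the other uninfected array and 7 without the one or the other array labelled IRE1 shRNA.

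RAN stood at 0.58, 0.80, -0.20 and 0.78 in RPMI-8226 and -0.38, -0.16, -1.22 and 0.16 in JJN3, so the XBP1 shRNA array was lowest in each line. RPL31 stood at 1.85, 1.75, 0.56 and 1.77 and at -0.80, -0.57, -1.83 and -0.56, again with the XBP1 shRNA array lowest in each line and no overlap between the lines. With IRE1 shRNA against NT shRNA limma called none of the genes on the 6 lists in either direction, and between 4.46% and 13.8% of their probe sets passed an unadjusted p under 0.05. In IRE1 shRNA against XBP1 shRNA, 8 genes were higher and 0 lower: POLR2E of 16, DDX10 (1.30) and NOP10 (0.98) of 46, RAN (1.19) and PAICS (1.14) of 36, and RPL31 (1.24), RPL22 (0.89) and RPL37 (1.10) of 53, with 0 of 18 in the MYC network and 0 of 46 in large subunit assembly. From 0% to 5.56% of the probe sets of a list were called, beside 1.9% of all (0.908% higher and 0.987% lower). These 8 genes have 9 called probe sets, of which 4 (3 genes) stayed called by the mean of the probe sets of a gene. Without the JJN3 array labelled IRE1 shRNA 0 of these 9 probe sets stayed called, and without the RPMI-8226 one, or the JJN3 XBP1 shRNA array, 1 did. Between NT shRNA and uninfected cells, between silenced and control cells and in the test of a difference between lines, limma called 0 genes of every list. JJN3 against RPMI-8226 had more genes lower than higher in 5 of the 6 lists, among them 36 of 53 ribosomal protein genes lower and 3 higher, and in the MYC network 8 were lower and 9 higher. The share of probe sets called ran from 55.6% to 67.8% over the lists, beside 56.0% of all, where lower calls (33.3%) also outnumbered higher ones (22.8%).

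The members with CACGTG in a promoter window were set beside those without it, as a description. With XBP1 shRNA against NT shRNA the 15 probe sets of the 12 measured members with the hexamer had a median of -0.26, 13 of them negative, and the 40 probe sets of the 14 members without it had -0.072. Over all genes in the promoter table the medians were -0.0046 with and -0.00060 without. The lowest member with the hexamer was SRM at -0.97, and the lowest without it was HMGA1 at -2.13. With IRE1 shRNA against NT shRNA the medians were 0.033 with and 0.015 without.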

How the data were processed

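RNA of 8 samples was hybridised to U133 Plus 2.0 arrays. The deposited values were taken as log2 expression because RMA is named, per the submitters' processing notes; the log base is not stated, and software versions are not given in the sources used here. In the deposited table every one of the 54675 probe sets had a median within 1e-05 of 0 over the arrays, so no level and no filter on dim probe sets was possible, and the upper part by SD stood in for that filter. No pair among 28 array pairs was identical, and 0 columns were left unused.

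All 54613 probe sets other than the 62 controls entered linear models on the 8 arrays (limma 3.58.1, R 4.3.3, moderated by eBayes). Each comparison had Benjamini-Hochberg adjustment over the whole table and a threshold of 0.05. Comparisons between treatments and between lines used a model of treatment and line. Silenced against control used a model of silencing and line, and the difference between lines added their interaction. In these last models unlike treatments stood as replicates. They did so in JJN3 against RPMI-8226 as well, where each side is 1 line under 4 treatments. The cell line was a block in every treatment comparison, since samples of the same replicate number are the same line, and the treatment was the block in JJN3 against RPMI-8226. Silenced cells are both shRNAs against targets and control cells are NT shRNA and uninfected. Probe sets were tested one by one; the mean of a gene's probe sets and the probe set of highest SD were alternatives, with others of scaling, filtering, design and left-out arrays. The fit was tested on simulated data. Values in every array are given for members called in any comparison, MYC, and the 5 member probe sets at each end of each comparison; other lists are named by their called genes. The members and lists were chosen with earlier results of these data known, so their counts are a description. Gene names are those of the array annotation, in which 41097 probe sets had 1 symbol, 1801 several and 11777 none.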

Additional observations from a re-analysis of the deposited data

How the results depend on the processing

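Of 1618 alternative values for 98 named values, 1400 kept direction and side of the threshold, 175 lost a call, 15 gained one and 28, over 22 values, changed sign; the causes were not tested. With XBP1 shRNA against NT shRNA, 1 member gene was called, and 2 after quantile normalization (SRM, -1.16, adjusted p = 0.0427, joined HMGA1), 3 against uninfected cells and 0 with no replicate block, with 0 to 1 when each array was left out; HMGA1 was lost without the RPMI-8226 NT shRNA array. The member median of -0.14 was -0.24 over highest SD probe sets, -0.22 over the upper part by SD and -0.17 to -0.086 with an array left out. Over all probe sets 660 were called, 345 after quantile normalization and 0 with no replicate block. In IRE1 shRNA against XBP1 shRNA, 2 member genes were called, 1 by the mean of probe sets, 4 with named probe sets only, 4 with the compared groups only, 0 with no replicate block and 0 to 3 with an array left out, 0 without IRE1 shRNA of JJN3 and 1 without XBP1 shRNA of JJN3. Its median of 0.18 was 0.27 over highest SD probe sets, 0.25 by the mean, 0.29 over the upper part by SD and 0.11 to 0.23 with an array left out. For NT shRNA against uninfected the median was 0.065 over the upper part by SD and -0.017 to 0.079 with an array left out, and for the difference between lines in silencing it was -0.21 to 0.022, positive without IRE1 shRNA of RPMI-8226. In JJN3 against RPMI-8226, 26 member genes were called, 21 to 26 over the alternatives, and the median was -0.24 at the array median, -0.54 over highest SD probe sets and -0.74 over the upper part by SD.

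Signs turned for these values. By the mean of probe sets, XBP1 shRNA against NT shRNA gave MAX (214108_at) -0.084 and RRP12 (1559126_at) -0.031. IRE1 shRNA against NT shRNA gave MXD1 (206877_at) -0.32, and IRE1 shRNA against XBP1 shRNA gave NCL (241892_at) 0.24. Silenced against control gave MAX (214108_at) -0.010 and RRP12 -0.063, and the difference between lines gave MAX (209331_s_at, 209332_s_at) -0.0074, MXD1 (206877_at) -0.030 and POLR1B (220113_x_at) -0.061. Against uninfected cells, XBP1 shRNA gave MXD3 -0.19 and RRP12 (1559126_at) -0.015, and IRE1 shRNA gave MAX (214108_at) 0.043 and MYC -0.032. With an array left out, XBP1 shRNA against NT shRNA ranged from -0.19 to 0.62 for MXD3, turning without the RPMI-8226 XBP1 shRNA array. IRE1 shRNA against NT shRNA ranged from -0.19 to 0.33 for MYC (turning without NT shRNA of RPMI-8226), -0.77 to 0.26 for ERN1 (without NT shRNA, or IRE1 shRNA, of JJN3) and -0.69 to 0.024 for MXD1 (226275_at; without IRE1 shRNA of JJN3). IRE1 shRNA against XBP1 shRNA ranged from -0.63 to 0.080 for MXD1 (226275_at), turning without the same array. NT shRNA against uninfected ranged from -0.16 to 0.94 for MAX (214108_at), -0.68 to 0.057 for RRP12 (1559126_at), -0.56 to 0.046 for UBTF (225982_at), all turning without uninfected RPMI-8226, and -0.37 to 0.16 for MYC, turning without NT shRNA of RPMI-8226. Silenced against control ranged from -0.30 to 0.71 for MXD1 (228846_at), turning without XBP1 shRNA of either line. The difference between lines ranged from -0.72 to 0.15 for MYC, turning without IRE1 shRNA of RPMI-8226 or XBP1 shRNA of JJN3.

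With 1 array per line and treatment the number of arrays limits the precision, and a lone array left in a group was assumed to vary like the others. Signal over background cannot be read from centred values.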
